A study of Mus musculus with 30 samples.

Results

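RANKL, its receptor RANK, the decoy receptor osteoprotegerin and the adapter TRAF6 were followed as one signalling system in the tumors that grew from 5 primary mouse tumor cell lines. The 4 genes, Tnfsf11 (RANKL), Tnfrsf11a (RANK), Tnfrsf11b (osteoprotegerin) and Traf6, were chosen by name out of the 48440 genes of the count table, and all 4 passed the filter on low counts that 16964 genes passed. Tnfsf11 entered because its level differed between the tumor lines that are controlled by NK1.1+ cells in the mouse and those that are not. Between lines, its levels and every ratio that holds it are therefore given as a description with no test, whereas the other 3 genes were tested. Comparisons within a line, which the choice did not use, were tested for all 4 genes.

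The cell lines were derived from single fibrosarcomas induced by the carcinogen methylcholanthrene (MCA), so that each line stands for 1 primary tumor, and they were grown again as tumors in mice of the C57BL/6 background. According to the design text, hosts with and without NK cells were used, but the host of each tumor is not given, so that differences between hosts may lie within and between the groups. The labels give the mouse strain as Ncr1Cre for MCA-943 and as Ncr1Cre R26DTA for the other lines, all with a C57BL/6 background; in Ncr1Cre R26DTA animals the Cre driven by Ncr1 switches on diphtheria toxin in NKp46+ innate lymphoid cells and removes them. Whether this strain is that of the host or of the mouse in which the tumor arose is not stated. The study classes MCA-943 (n = 4 tumors) and MCA-969 (n = 8) as non-sensitive to NK1.1+ cells, and MCA-948 (n = 8), MCA-970 (n = 6) and MCA-972 (n = 4) as sensitive. Of the MCA-969 tumors, the labels call 2, W-1D and W-2D, sensitive, and they were kept with their line. Each title also carries a letter, W or a, except for MCA-972 2G, and the meaning of the letter is not given in the sources used here; the age of the animals is not given either. Hematopoietic cells had been taken out of the tumor suspensions with CD45 beads before RNA was extracted.

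RANKL is a membrane-bound and shed cytokine of the TNF family that binds RANK, a receptor without enzymatic activity of its own. RANK recruits TRAF6, which passes the signal to NF-κB, to the MAP kinases and, in osteoclast precursors, to NFATc1, the regulator that drives osteoclast formation. Osteoprotegerin is a secreted receptor that captures RANKL before it reaches RANK, so that the balance of RANKL and osteoprotegerin made by osteoblasts and stromal cells sets bone resorption. RANKL is also made by activated T cells and RANK by myeloid cells, and the study took an interest in the pair because RANKL has been linked to the inhibition of NK cells.

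All 5 lines gave libraries of like depth, between 27745104 and 46537062 counts per tumor, and levels are given in CPM, the counts per 1000000 of a library after TMM scaling. The labelled tissue was borne out by its markers: all 6 fibroblast markers (Col1a1, Col1a2, Col3a1, Pdgfrb, Thy1 and Vim) were detected in every line, and their summed level lay between 8849 and 59963 CPM. The T cell markers summed to at most 8.36 CPM and the B cell markers to at most 3.46 CPM in any tumor. The NK cell and ILC1 markers reached 31.4 CPM in MCA-943, 21.9 in MCA-970 and 12.5 in MCA-948 but no more than 3.83 in MCA-969 and 2.24 in MCA-972, with medians from 1.01 CPM in MCA-972 to 7.63 CPM in MCA-943. The myeloid markers summed to between 11.7 and 269 CPM and the endothelial markers to between 21.3 and 499 CPM. MCA-969 tumors also held the simple keratins Krt8, at a mean of 386 CPM against at most 3.51 CPM in the other lines, and Krt18, at 256 CPM against at most 91.9 CPM. These are bulk samples, in which fewer cells of a type and less RNA per cell cannot be told apart.

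The genes differ in the sequence in front of their start sites, which is shown for Tnfsf11, Tnfrsf11a and Traf6 because the first varied most and the last least of the 4 members between lines. Tnfrsf11b is not shown, as its sequence was not in the RefSeq table used here. Each run is the 250 bases before the RefSeq start site on GRCm38.p6, read on the strand of the gene. Capitals mark matches on either strand to the core letters of the TATA box (TATAAA), of the GC box (GGGCGG), of the site of RUNX factors (TGTGGT) and of the AP-1 site (TGANTCA).
Tnfsf11, chr14:78308044-78308293, reverse strand: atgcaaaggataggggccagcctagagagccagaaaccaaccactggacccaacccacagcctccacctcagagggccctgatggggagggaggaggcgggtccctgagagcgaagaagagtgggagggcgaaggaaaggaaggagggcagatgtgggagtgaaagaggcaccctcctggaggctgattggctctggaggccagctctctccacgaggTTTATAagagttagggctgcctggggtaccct
Tnfrsf11a, chr1:105780473-105780722, forward strand: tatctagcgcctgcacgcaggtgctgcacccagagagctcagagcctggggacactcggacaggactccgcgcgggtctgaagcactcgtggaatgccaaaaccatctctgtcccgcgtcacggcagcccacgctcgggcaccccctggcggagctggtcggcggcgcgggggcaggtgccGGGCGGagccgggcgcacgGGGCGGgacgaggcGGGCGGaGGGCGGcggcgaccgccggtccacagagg
Traf6, chr2:101678170-101678419, forward strand: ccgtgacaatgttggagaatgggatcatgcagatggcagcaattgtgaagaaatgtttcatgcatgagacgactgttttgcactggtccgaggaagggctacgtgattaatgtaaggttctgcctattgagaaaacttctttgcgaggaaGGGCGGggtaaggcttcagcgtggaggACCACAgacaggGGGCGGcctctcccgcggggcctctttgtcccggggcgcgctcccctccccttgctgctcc

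The Tnfsf11 window held 1 match to TATAAA, which lies 27 to 32 bases before the start site on the opposite strand, and no match to GGGCGG was found there. The word TATAAA was found in 12.4% of the 32851 windows of the same length in the RefSeq set. The Tnfrsf11a window held 4 matches to GGGCGG and the Traf6 window 2, a word found in 32.7% of all windows, and neither held TATAAA in these bases. The word TGTGGT, found in 14.05% of all windows, occurred once, in Traf6, and TGANTCA, found in 6.75%, occurred in none of the 3. The Tnfsf11 window was 60.4% G and C with 4 CG dinucleotides, against 73.6% with 31 for Tnfrsf11a and 56.4% with 13 for Traf6; the medians over all windows were 52.4% and 6. A match to these letters describes the sequence and is not evidence of a bound factor.

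RANKL was the most variable of the 4 genes. Mean Tnfsf11 levels ranged 20.7-fold, from 0.852 ± 0.353 CPM in MCA-948 (SD, n = 8) to 17.6 ± 23.7 CPM in MCA-969 (SD, n = 8), and the range of the line means on the log2 scale was larger than that of 93.7% of the genes past the filter. In between were MCA-970 at 1.24 ± 0.632 CPM (SD, n = 6), MCA-972 at 4.33 ± 1.35 CPM (SD, n = 4) and MCA-943 at 15.2 ± 2.90 CPM (SD, n = 4). Tnfsf11 (ENSMUSG00000022015) spans 78277445 to 78308043 of chromosome 14 on GRCm38, reverse strand, and no other annotated gene overlaps it.

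In MCA-943 the tumors W-2G, a-1D, a-1G and a-R held 19.5, 13.4, 13.3 and 14.6 CPM of Tnfsf11. In MCA-972 the tumors 2G, a-1, a-1G and a-R held 6.09, 4.63, 3.08 and 3.52 CPM. The tumors of MCA-943 were thus alike within 1.46-fold, and all lay above those of MCA-972. In MCA-948 the level ran from 0.359 to 1.28 CPM with a median of 0.937, or 11 to 53 counts per tumor, and in MCA-970 from 0.520 to 1.99 CPM with a median of 1.26. The ranges of MCA-948 and MCA-970 overlapped, and both lay below MCA-972. In MCA-969 the tumors ran from 5.23 to 75.6 CPM with a median of 9.71. The top value belongs to tumor WR, and the other 7 tumors reached no more than 15.3 CPM; without WR the line mean was 9.33 ± 3.91 CPM (SD, n = 7), below that of MCA-943. Taken by tumor, the 12 non-sensitive tumors (5.23 to 75.6 CPM) and the 18 sensitive tumors (0.359 to 6.09 CPM) overlapped: MCA-972 2G lay above the MCA-969 tumors W-2G and a-2D, at 5.23 and 5.66 CPM. The fitted differences on the log2 scale were 4.14 for MCA-943 over MCA-948, 3.61 over MCA-970 and 1.81 over MCA-972. For MCA-969 they were 4.35, 3.82 and 2.02 with WR included, the tumor that raises the line mean from 9.33 to 17.6 CPM. The mean of the log2 CPM values, in which WR weighs less, was 3.51 in MCA-969 and 3.91 in MCA-943.

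**Figure D1:**
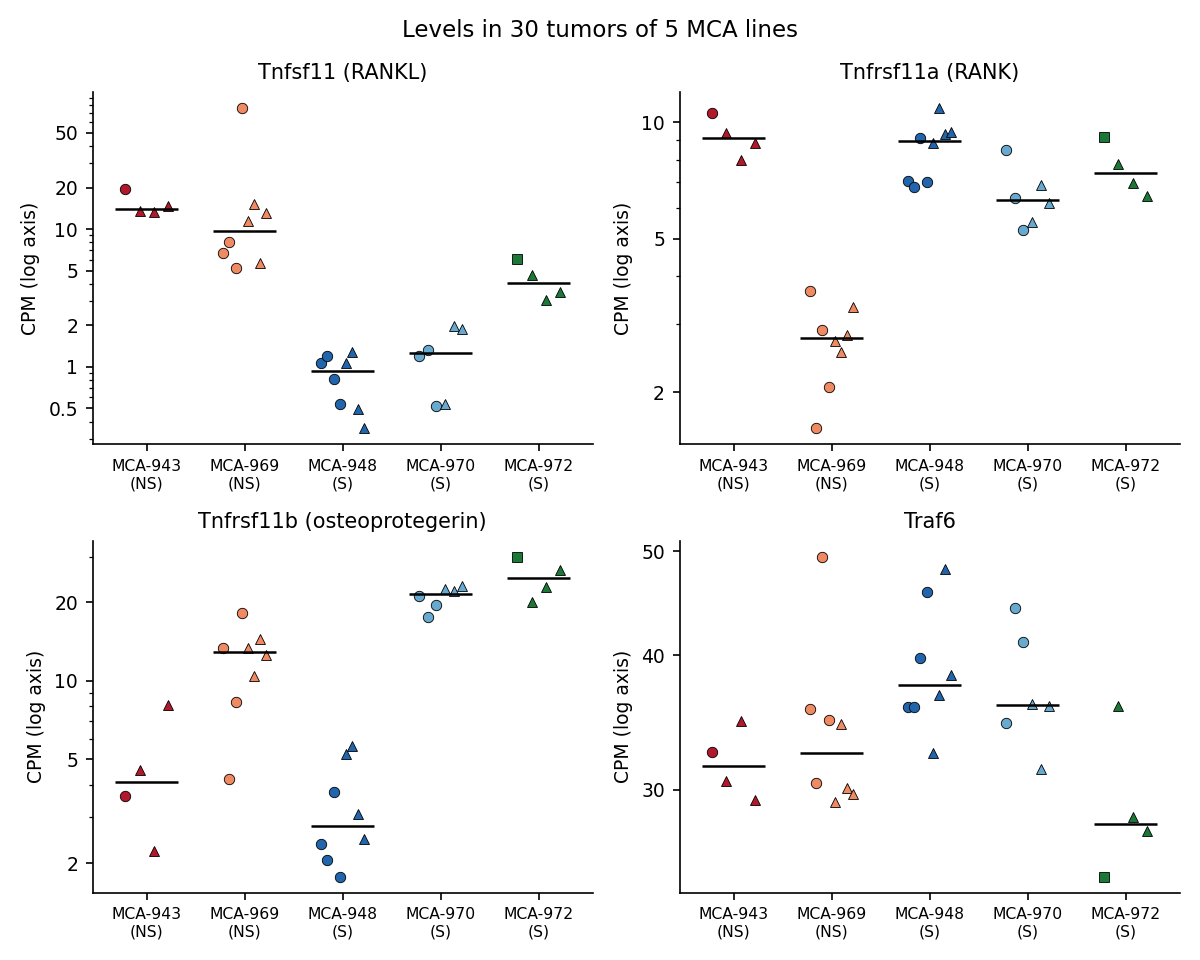
Level of each gene in CPM on a log axis, 1 point per tumor, by line (NS, non-sensitive; S, sensitive); circles are tumors with the letter W, triangles those with a and the square the tumor without a letter, and bars mark line medians. Tnfsf11 lies highest in MCA-943 and MCA-969 with WR at 75.6 CPM on top, Tnfrsf11a lies low in MCA-969 alone, Tnfrsf11b lies low in MCA-943 and MCA-948, and Traf6 stays between 24.9 and 49.4 CPM.

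T cells and osteoblasts are known sources of RANKL, so their markers are given beside it. The 6 T cell markers summed to between 3.28 and 8.36 CPM in MCA-943 and to no more than 2.10 CPM in MCA-969, the other line with high Tnfsf11, and Cd3e was at 0 in 15 of 30 tumors. The 5 osteoblast markers summed to between 4.01 and 34.2 CPM in MCA-969, where Dmp1, at a mean of 18.1 CPM, made up most of the sum. They summed to at most 4.79 CPM in every other line, with 1.34 to 1.89 CPM in MCA-943. Sp7 (0.843 CPM) and Alpl (1.025 CPM) also had their highest mean in MCA-969. Ibsp had its lowest mean there, at 0.0591 CPM, and Bglap, at 0.0234 CPM, was below MCA-948, MCA-970 and MCA-972. The part of T cells and osteoblasts in the Tnfsf11 levels was not tested.

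RANK was lower in MCA-969 than in each of the other lines, and differed little among the rest. Tnfrsf11a (ENSMUSG00000026321, forward strand of chromosome 1 from 105780718 to 105847981) was at 2.71 ± 0.651 CPM in MCA-969 (SD, n = 8). It was at 9.18 ± 1.07 CPM in MCA-943 (SD, n = 4), 8.55 ± 1.46 in MCA-948 (SD, n = 8), 7.59 ± 1.17 in MCA-972 (SD, n = 4) and 6.45 ± 1.15 in MCA-970 (SD, n = 6). The 2 non-sensitive lines thus held the highest and the lowest mean level of the receptor.

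The MCA-969 tumors ran from 1.62 to 3.65 CPM of Tnfrsf11a with a median of 2.77. In MCA-943 the tumors W-2G, a-1D, a-1G and a-R held 10.55, 9.37, 7.99 and 8.82 CPM, and in MCA-972 the tumors 2G, a-1, a-1G and a-R held 9.14, 7.79, 6.96 and 6.46 CPM. The MCA-948 tumors ran from 6.79 to 10.9 CPM with a median of 8.97 and the MCA-970 tumors from 5.27 to 8.48 CPM with a median of 6.28. No MCA-969 tumor reached the lowest tumor of any other line, whereas the ranges of neighbouring lines overlapped everywhere else in the order. The share of all genes that set a line apart in this way is not given here. For the median gene past the filter, line accounted for 74.9% of the variance.

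The lines were compared in 1 fit of edgeR's quasi-likelihood model to the 30 tumors. A call required both an adjusted p (Benjamini-Hochberg) below 0.05 and a log2 fold change of at least 1 in either direction. Tnfrsf11a was called in 4 of the 10 comparisons of lines, all of them with MCA-969. It was lower in MCA-969 than in MCA-948 by a log2 fold change of -1.66 (SE 0.140, edgeR adjusted p = 3.18e-11), where 3.92% of all genes tested were called lower. It was lower than in MCA-970 by -1.25 (SE 0.148, edgeR adjusted p = 2.84e-08), where 10.7% were called lower, and than in MCA-972 by -1.48 (SE 0.162, edgeR adjusted p = 9.16e-09), where 10.1% were. It was higher in MCA-943 than in MCA-969 by 1.76 (SE 0.161, edgeR adjusted p = 1.77e-10), where 11.9% of the genes were called higher. Between the other lines the log2 differences were at most 0.51 in size, with the smallest edgeR adjusted p at 0.0123 for MCA-943 over MCA-970.

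Library numbers fell into 3 blocks, called runs here. The labels name no sequencing run, so these blocks need not be batches. MCA-969 shared one with MCA-972 (6 MCA-969 tumors) and another with MCA-948 and MCA-970 (2 MCA-969 tumors, the same W-1D and W-2D that the labels call sensitive). Within these runs Tnfrsf11a was lower in MCA-969 by a log2 difference of -1.48 (against MCA-972), -1.84 (against MCA-948) and -1.28 (against MCA-970), and each was called. The myeloid markers, from cells that carry RANK, summed to a median of 17.1 CPM in MCA-969. Their medians were 32.8 CPM in MCA-972, 40.8 in MCA-970, 58.4 in MCA-943 and 67.4 in MCA-948. The line with the least RANK thus also had the lowest median of the summed markers. Ptprc, which marks all leukocytes, had a mean of 1.07 CPM in MCA-969 and of 12.4 CPM in MCA-943. Cd68 alone of these markers was higher in MCA-969, at 9.37 CPM, than in MCA-943, at 7.66 CPM. Within lines, Pearson's r of Tnfrsf11a with the summed myeloid markers was -0.27 in MCA-948 (n = 8), 0.48 in MCA-969 (n = 8) and 0.38 in MCA-970 (n = 6). With the summed fibroblast markers it was 0.98, 0.63 and 0.07 in the same order, as a description with no test. The part of myeloid cells in the Tnfrsf11a levels was not tested.

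Osteoprotegerin set the lines apart in another way: it was high in MCA-970 and MCA-972, intermediate in MCA-969 and low in MCA-943 and MCA-948. Tnfrsf11b (ENSMUSG00000063727, reverse strand of chromosome 15 from 54250619 to 54278484) was at 24.9 ± 4.34 CPM in MCA-972 (SD, n = 4), 21.02 ± 2.07 in MCA-970 (SD, n = 6) and 11.9 ± 4.24 in MCA-969 (SD, n = 8). It was at 4.62 ± 2.51 CPM in MCA-943 (SD, n = 4) and 3.30 ± 1.46 in MCA-948 (SD, n = 8), the latter 7.53-fold below MCA-972. Low osteoprotegerin was thus found in 1 non-sensitive and 1 sensitive line.

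The tumors W-2G, a-1D, a-1G and a-R of MCA-943 held 3.61, 4.56, 2.22 and 8.11 CPM of Tnfrsf11b, and the tumors 2G, a-1, a-1G and a-R of MCA-972 held 30.003, 20.02, 22.9 and 26.5 CPM. The other lines ran from 1.77 to 5.64 CPM with a median of 2.79 in MCA-948, from 4.22 to 18.3 CPM with a median of 12.96 in MCA-969, and from 17.6 to 23.2 CPM with a median of 21.6 in MCA-970. MCA-970 was the most uniform line, with a spread of 9.83% of its mean against 54.4% in MCA-943. All tumors of MCA-970 and MCA-972 lay above all tumors of MCA-943 and MCA-948, and MCA-969 overlapped with MCA-970, MCA-943 and MCA-948. The share of all genes with such a separation is not given here. The lowest MCA-969 tumor, W-2D, at 4.22 CPM, is one of the pair that the labels call sensitive, and the other, W-1D, was at 13.3 CPM.

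Tnfrsf11b was called in 7 of the 10 comparisons. MCA-948 was below MCA-972 by a log2 fold change of -2.90 (SE 0.296, edgeR adjusted p = 1.52e-09), where 18.4% of all genes were called lower, and below MCA-970 by -2.66 (SE 0.276, edgeR adjusted p = 1.48e-09), where 19.8% were. MCA-943 was below MCA-972 by -2.41 (SE 0.370, edgeR adjusted p = 2.74e-06; 13.5% of genes called lower) and below MCA-970 by -2.17 (SE 0.349, edgeR adjusted p = 4.84e-06; 14.9%). These are all the comparisons of a line with low and a line with high osteoprotegerin. MCA-969 was above MCA-948 by 1.84 (SE 0.260, edgeR adjusted p = 5.94e-07), where 16.9% of genes were called higher, and MCA-943 was below MCA-969 by -1.35 (SE 0.327, edgeR adjusted p = 0.000785), where 15.1% were called lower. The last of these was no longer called with the run as a covariate, at -1.24 (edgeR adjusted p = 0.112), and MCA-943 and MCA-969 shared no run.

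The differences of MCA-969 from the lines with high osteoprotegerin were close to the threshold. MCA-969 was below MCA-972 by -1.06 (SE 0.292, edgeR adjusted p = 0.00300) and below MCA-970 by -0.82 (SE 0.264, edgeR adjusted p = 0.00859), so that only the first was called. Within the run that both lines shared, the first was -0.95 and no longer called, and within its own shared run, which holds only W-1D and W-2D of MCA-969, the second was -1.25 and called. The first also fell short of the threshold without W-2D (-0.94) or without the MCA-972 tumor 2G (-0.99). Between MCA-970 and MCA-972 the log2 difference was -0.24 (SE 0.314, edgeR adjusted p = 0.548) and between MCA-943 and MCA-948 it was 0.49 (SE 0.312, edgeR adjusted p = 0.172). Vessel cells also make osteoprotegerin, and the endothelial markers summed to between 263 and 499 CPM in MCA-970 but to between 47.4 and 131 CPM in MCA-972, which held the most Tnfrsf11b. In MCA-943 they summed to between 55.5 and 128 CPM, about the same as in MCA-972. The part of vessel RNA in the Tnfrsf11b levels was not tested.

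Traf6 was at a similar level in all lines. Traf6 (ENSMUSG00000027164, forward strand of chromosome 2 from 101678429 to 101701669) had means between 29.1 ± 4.73 CPM in MCA-972 (SD, n = 4) and 39.1 ± 5.34 CPM in MCA-948 (SD, n = 8), a range of 1.34-fold. The range of its line means was larger than that of only 5.87% of the genes past the filter. The tumors of MCA-943 held 32.5, 30.6, 34.8 and 29.4 CPM and those of MCA-972 24.9, 35.9, 28.3 and 27.5 CPM, in the order given above. MCA-948 tumors ran from 32.5 to 48.1 CPM (median 37.6), MCA-969 tumors from 29.2 to 49.4 (median 32.5) and MCA-970 tumors from 31.3 to 44.3 (median 36.0), and neighbouring lines in the order overlapped throughout. Traf6 was called in 0 of the 10 comparisons by edgeR and by DESeq2, where 24.6% of the tests of all genes over the 10 comparisons were calls by edgeR, although 3 had an edgeR adjusted p under 0.05 and the same 3 an unadjusted p under 0.05. The largest difference was 0.42 for MCA-948 over MCA-972 (SE 0.126, edgeR adjusted p = 0.00463).

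**Figure D2:**
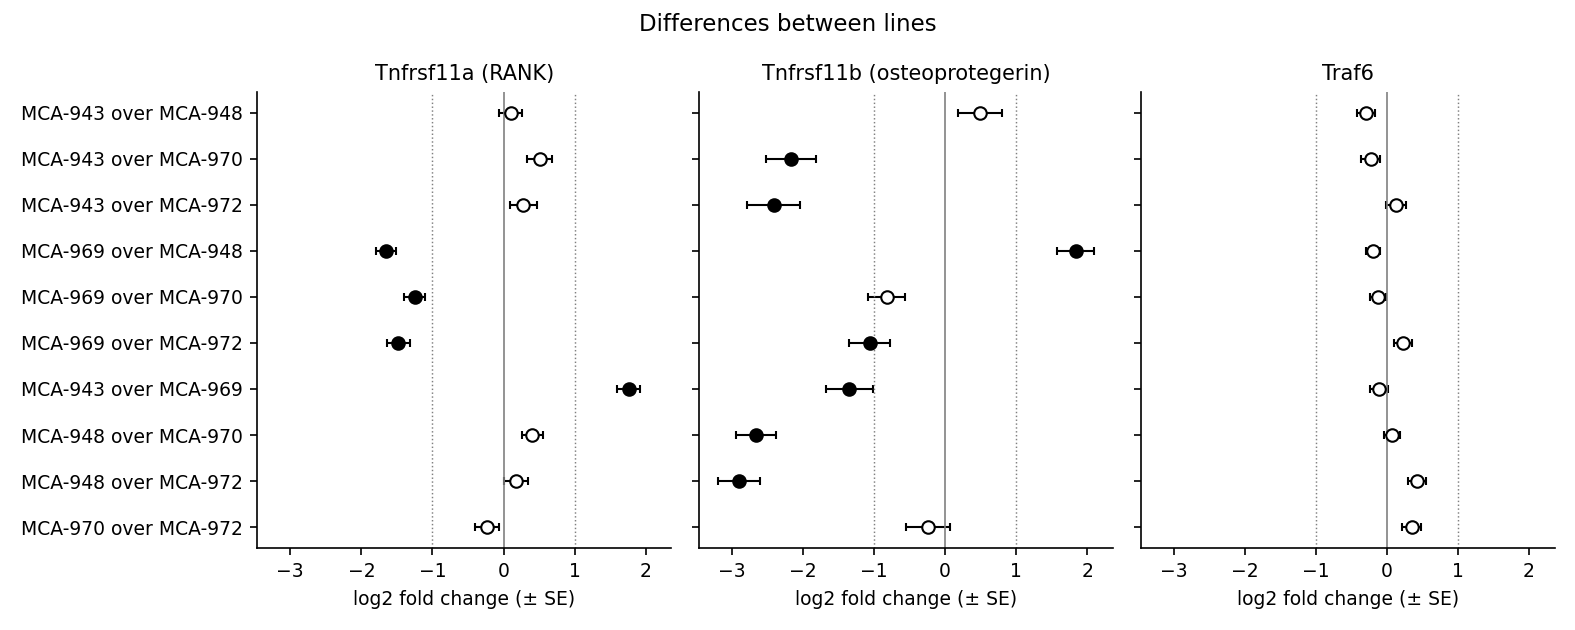
Log2 fold change between lines, with its SE as bars, for Tnfrsf11a, Tnfrsf11b and Traf6 in each of the 10 comparisons; filled points were called by edgeR and dotted lines mark a log2 fold change of 1 in size. The filled points of Tnfrsf11a all belong to MCA-969, Tnfrsf11b has 7 filled points of up to 2.90 in size, and all points of Traf6 are open.

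Sensitivity is a property of the line, so that it can be tested over 5 line means only, where a two-sided exact permutation test cannot give a p under 0.1. The mean log2 CPM of the 2 non-sensitive lines minus that of the 3 sensitive lines was -0.58 for Tnfrsf11a (exact permutation p = 0.6), -0.78 for Tnfrsf11b (exact permutation p = 0.6) and -0.08 for Traf6 (exact permutation p = 0.8). In none of the 3 genes did both non-sensitive lines lie on the same side of all 3 sensitive lines.

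Per length, the ligand was the more abundant transcript in some lines and the decoy receptor in others. Counts were divided by the counted length of each gene (2236 bases for Tnfsf11, 5985 for Tnfrsf11a, 2818 for Tnfrsf11b and 7883 for Traf6) to compare genes with each other. In CPM per kilobase, MCA-943 held 6.80 ± 1.30 of RANKL, 1.64 ± 0.892 of osteoprotegerin and 1.53 ± 0.179 of RANK (SD, n = 4). MCA-948 held 0.381 ± 0.158 of RANKL, 1.17 ± 0.519 of osteoprotegerin and 1.43 ± 0.245 of RANK (SD, n = 8). Neither receptor was called between these lines, whose ligand levels did not overlap.

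The other lines combined the members differently. MCA-972 held 1.94 ± 0.602 CPM per kilobase of RANKL, 8.82 ± 1.54 of osteoprotegerin and 1.27 ± 0.196 of RANK (SD, n = 4). MCA-970 held 0.555 ± 0.283 of RANKL, 7.46 ± 0.733 of osteoprotegerin and 1.08 ± 0.192 of RANK (SD, n = 6). In both, the decoy receptor was the most abundant of the 3 per length. MCA-969 held 7.88 ± 10.6 of RANKL, 4.22 ± 1.51 of osteoprotegerin and 0.452 ± 0.109 of RANK (SD, n = 8), the lowest mean level of the receptor. Its mean of RANKL rests on tumor WR, and by the median Tnfsf11 was lower in MCA-969 (9.71 CPM) than in MCA-943 (14.01 CPM). Traf6 lay between 3.70 and 4.96 CPM per kilobase in the line means, above RANK in all 5 lines.

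**Figure D3:**
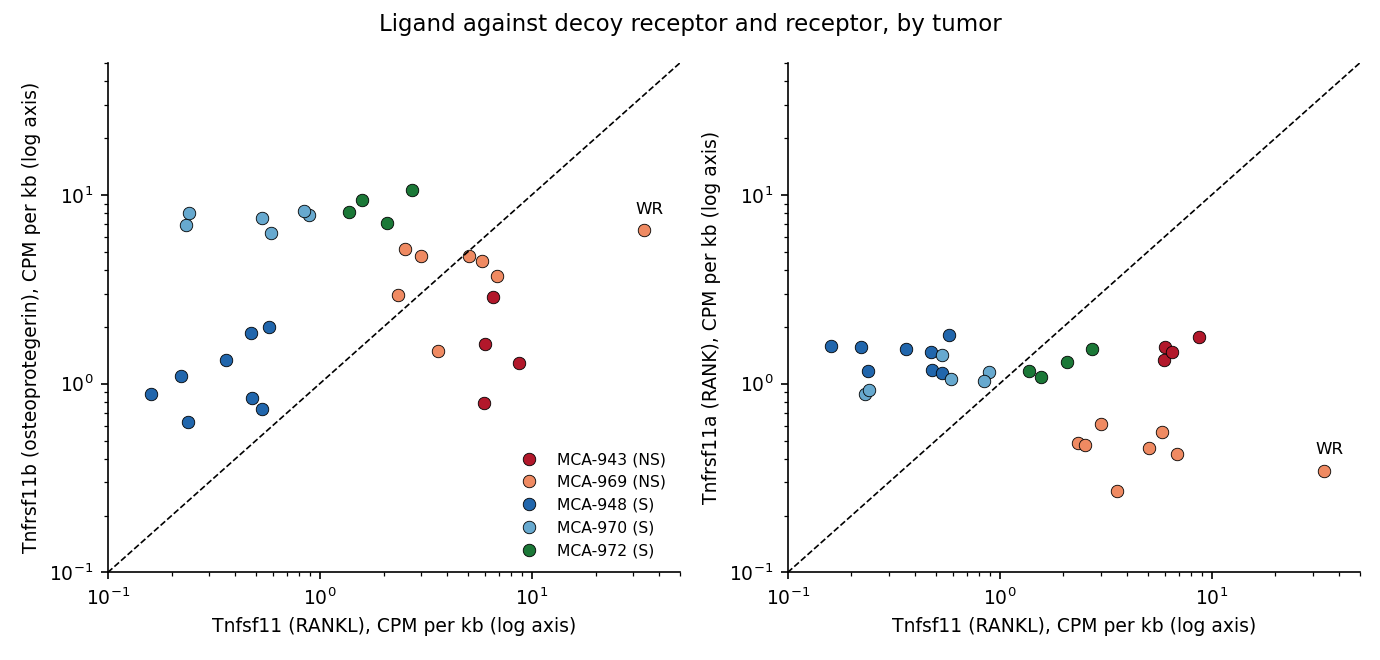
Levels per length in single tumors (CPM per kilobase, log axes), Tnfsf11 on the x axis against Tnfrsf11b (left) and Tnfrsf11a (right); 1 point per tumor, coloured by line (NS, non-sensitive; S, sensitive), and the dashed line marks equal levels. MCA-943 lies wholly below the dashed line in both panels, MCA-948 and MCA-970 wholly above it, and MCA-972 is above it on the left and below it on the right.

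The ratio of RANKL to osteoprotegerin, per length, had the order MCA-943, MCA-969, MCA-948, MCA-972, MCA-970. In MCA-943 it was 6.81, 3.71, 7.56 and 2.27 in the tumors W-2G, a-1D, a-1G and a-R, and in MCA-972 it was 0.256, 0.291, 0.169 and 0.167 in the tumors 2G, a-1, a-1G and a-R. It ran from 0.490 to 5.21 with a median of 1.19 in MCA-969, from 0.182 to 0.734 with a median of 0.280 in MCA-948, and from 0.0301 to 0.114 with a median of 0.0827 in MCA-970. The ligand was in excess in all 4 tumors of MCA-943, in 5 of 8 of MCA-969 and in none of the 18 sensitive tumors. The means of the log2 ratio of counts were 1.85 ± 0.81 (SD, n = 4), 0.04 ± 1.11 (SD, n = 8), -1.95 ± 0.69 (SD, n = 8), -2.55 ± 0.41 (SD, n = 4) and -4.24 ± 0.83 (SD, n = 6) in the same order. MCA-969 overlapped with both MCA-943 and MCA-948, and MCA-948 with MCA-972, whereas MCA-970 lay below all others. As the tumors of MCA-948 and MCA-972 show, like ratios were reached from different levels, since MCA-972 held more of both transcripts.

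The ratio of RANKL to RANK separated the tumors by the class of their line without overlap. Per length it ran from 3.83 to 98.0 in the 12 non-sensitive tumors and from 0.102 to 1.78 in the 18 sensitive tumors. It was 4.94, 3.83, 4.47 and 4.44 in the MCA-943 tumors W-2G, a-1D, a-1G and a-R, and it lay between 4.82 and 98.0 in MCA-969, from 1.18 to 1.78 in MCA-972, from 0.260 to 0.816 in MCA-970 and from 0.102 to 0.472 in MCA-948. Since Tnfsf11 was chosen for its difference between these classes, the separation is a description of the choice; the MCA-969 tumors W-2G and a-2D, whose Tnfsf11 was below that of MCA-972 2G, had 2.91 and 2.82 CPM of Tnfrsf11a against 9.14 CPM in that tumor. The ratio of RANK to osteoprotegerin, which holds no Tnfsf11, formed a high and a low set of lines. It lay between 0.512 and 1.86 in MCA-943 and MCA-948 and between 0.0532 and 0.189 in MCA-969, MCA-970 and MCA-972, with no tumor in between. The share of other gene pairs whose ratio forms such sets is not given here.

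**Figure D4:**
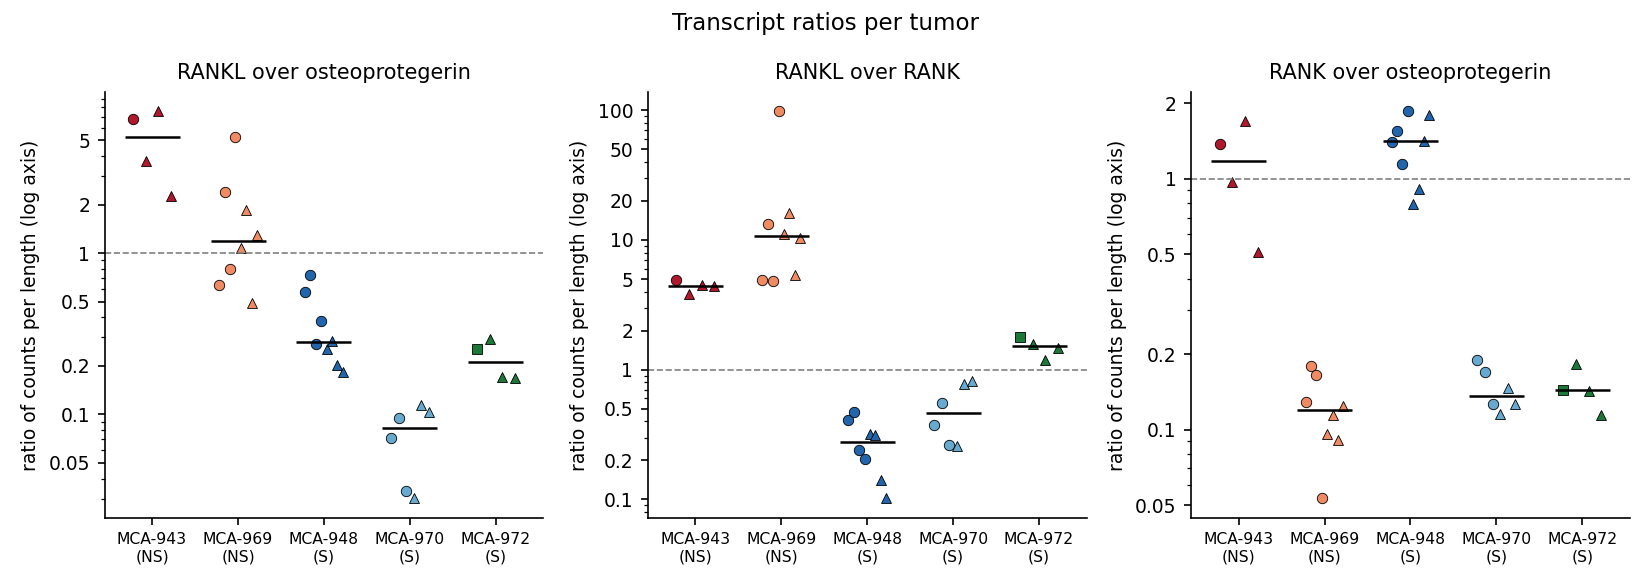
Ratio of counts per length in single tumors, by line, on log axes; symbols as in the plot of levels, bars mark line medians and the dashed line a ratio of 1. RANKL over osteoprotegerin falls from MCA-943 to MCA-970, RANKL over RANK is 3.83 or more in all non-sensitive tumors, and RANK over osteoprotegerin is near 1 in MCA-943 and MCA-948 and at most 0.189 elsewhere.

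Line accounted for most of the variance of 3 of the 4 genes in log2 CPM, with 88.6% for Tnfrsf11a, 84.7% for Tnfrsf11b and 83.8% for Tnfsf11, against 37.3% for Traf6 and a median of 74.9% over all genes past the filter. Between tumors of 1 line, Tnfsf11 had a pooled SD of 0.84 on the log2 scale, above that of 94.97% of genes, and Tnfrsf11b one of 0.55, above that of 81.0%. Tnfrsf11a, with 0.28, and Traf6, with 0.20, were near or below the median gene. By this pooled SD, the ligand and the decoy receptor varied more between sister tumors than the receptor and the adapter did. It did not hold in each line: in MCA-970 the SD was 0.15 for Tnfrsf11b, 0.24 for Tnfrsf11a and 0.18 for Traf6. In MCA-972 these were 0.25, 0.22 and 0.22. The SD of Tnfsf11 was largest in MCA-969, at 1.24 with WR included, and MCA-948 and MCA-970 held at most 53 and 78 counts of it per tumor.

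Within lines the members showed no relation that held after adjustment. Over the 18 relations (6 pairs of genes in each of the lines with 6 or more tumors) no Benjamini-Hochberg adjusted permutation p was under 0.05, and 2 had an unadjusted exact permutation p of Pearson's r under 0.05. In MCA-948, Tnfrsf11a and Tnfrsf11b had Pearson's r = 0.79 (n = 8, exact permutation p = 0.0278, adjusted p = 0.4) and Spearman's rho = 0.74 (exact permutation p = 0.0458, adjusted p = 0.764), and r was 0.61 without the 2 tumors farthest from the median of Tnfrsf11a. In MCA-970, Tnfrsf11b and Traf6 had r = -0.82 (n = 6, exact permutation p = 0.0444, adjusted p = 0.4) and rho = -0.54 (exact permutation p = 0.297, adjusted p = 0.764), and r was 0.37 without the 2 farthest tumors, so that this value rests on them. Tnfsf11 and Tnfrsf11b, the parts of the ratio, had r = 0.42 in MCA-948 (n = 8, exact permutation p = 0.293), 0.45 in MCA-969 (n = 8, exact permutation p = 0.221) and 0.17 in MCA-970 (n = 6, exact permutation p = 0.790), with adjusted p of 0.678, 0.678 and 0.889. Their rho was 0.24, 0.24 and 0.31 (adjusted permutation p = 0.844 for each), and r without the 2 farthest tumors was 0.50, -0.00085 and 0.63.

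The title letter was compared as a letter only. Over the 26 tumors of the 4 lines that hold both letters (12 W and 14 a), with the line in the model, none of the 4 members had an adjusted p under 0.05 (edgeR, at any fold change), where 0.269% of the 16698 genes tested did; the smallest unadjusted p was 0.0601, for Tnfrsf11b. The log2 difference of W from a was 0.40 for Tnfsf11 (SE 0.386, edgeR adjusted p = 0.941), -0.40 for Tnfrsf11b (SE 0.203, edgeR adjusted p = 0.705), -0.11 for Tnfrsf11a (SE 0.112, edgeR adjusted p = 0.955) and 0.15 for Traf6 (SE 0.0762, edgeR adjusted p = 0.716). Without the MCA-969 tumor WR the value of Tnfsf11 turned to -0.25.

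Within single lines, Tnfrsf11b was on average lower in W in all 3 lines tested. The log2 differences were -0.69 in MCA-948 (4 W and 4 a, exact permutation p = 0.143), -0.39 in MCA-969 (4 and 4, exact permutation p = 0.514) and -0.22 in MCA-970 (3 and 3, exact permutation p = 0.1, the smallest that 3 against 3 allow). In MCA-970 all W tumors (17.6 to 21.1 CPM) lay below all a tumors (22.05 to 23.2 CPM), and in the other lines the letters overlapped. The log2 ratio of RANKL to osteoprotegerin differed by 0.99 in MCA-948 (exact permutation p = 0.0571), 0.58 in MCA-969 (exact permutation p = 0.514) and -0.21 in MCA-970 (exact permutation p = 0.7). Over the 15 tests of this kind the smallest adjusted p was 0.286. In MCA-969 the letter coincides with the set of sample numbers, so these cannot be told apart there. In MCA-948 the letter is partly mixed with the run and the set, since all 4 W tumors shared a run with only 2 of the 4 a tumors. These 2 a tumors held 5.26 and 5.64 CPM of Tnfrsf11b, and the a tumors of the other run 3.09 and 2.48 CPM.

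Genes around the system were taken from a list of 57 known partners, adapters, regulators and targets, of which 53 passed the filter. Over the 10 comparisons 30.6% of the tests of list genes were calls, against 24.6% over all genes, and 34 of the 53 were called in at least 1 comparison, as were 59.1% of all genes tested. The share was lowest among the 13 adapters and kinases downstream of RANK, at 10.8%, and highest among the 7 tested osteoclast genes, at 57.1%. Of these 7, Ocstamp and Calcr had line means of at most 0.906 and 0.313 CPM. Genes this low can pass the filter through the line where they are high, which favours calls, so the share of this role depends in part on the filter. Of the 13 adapters and kinases 4 were called in any comparison, and the line means of the other 9 spanned 0.28 to 0.98 on the log2 scale, against 0.43 for Traf6.

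In each comparison the count of list genes, out of 53, is followed in brackets by the share of all genes called in that direction. MCA-943 against MCA-948 had 19 list genes higher (17.6%) and 2 lower (11.4%), and MCA-969 against MCA-948 had 16 higher (16.9%) and 0 lower (3.92%). In both of these the calls of all genes leaned to the same side. MCA-948 against MCA-970 had 1 higher (9.66%) and 19 lower (19.8%), and MCA-948 against MCA-972 had 3 higher (8.29%) and 12 lower (18.4%), and here too more of all genes were lower than higher. MCA-943 had 9 higher (12.4%) and 9 lower (14.9%) against MCA-970, 13 higher (12.2%) and 4 lower (13.5%) against MCA-972, and 9 higher (11.9%) and 7 lower (15.1%) against MCA-969. MCA-969 had 5 higher (10.7%) and 7 lower (10.7%) against MCA-970 and 9 higher (10.4%) and 5 lower (10.1%) against MCA-972. MCA-970 against MCA-972 had 10 higher (8.62%) and 3 lower (8.99%). The median log2 difference of the list was 0.43 for MCA-943 over MCA-948, where that of all genes was -0.01, and -0.24 for MCA-948 over MCA-970, where it was -0.05. The median was -0.16 for MCA-969 over MCA-970, against 0.03 for all genes. With the run as a covariate the list genes called fell from 18 to 9 for MCA-943 against MCA-970, from 16 to 10 for MCA-943 against MCA-969 and from 15 to 8 for MCA-948 against MCA-972.

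Of the adapters and kinases, Traf5, another adapter of RANK, was at 31.5 ± 3.66 CPM in MCA-943 (SD, n = 4) and 7.94 ± 0.551 CPM in MCA-972 (SD, n = 4), a log2 difference of 1.99 (SE 0.123, edgeR adjusted p = 9.44e-14). Gab2, a scaffold that binds RANK, was at 61.2 ± 2.77 CPM in MCA-943 and 17.6 ± 2.83 CPM in MCA-972 (SD, n = 4 each), and Map3k14, the NF-κB-inducing kinase, was at 45.5 ± 3.12 and 17.4 ± 1.78 CPM. These 3 were highest in MCA-943, whereas the fourth adapter called, Traf3, which holds back NF-κB-inducing kinase, was highest in MCA-948, at a mean of 108 CPM against 45.3 CPM in MCA-970. Of the transcription factors, Jun, a part of AP-1, was at 9298 ± 2914 CPM in MCA-972 (SD, n = 4) and 1299 ± 277 CPM in MCA-948 (SD, n = 8). Mitf, which drives osteoclast genes, was at 38.4 ± 6.76 CPM in MCA-970 (SD, n = 6) and 7.83 ± 1.71 CPM in MCA-948 (SD, n = 8). Nfkbia, the inhibitor of NF-κB that NF-κB itself induces, was at 941 ± 126 CPM in MCA-943 (SD, n = 4) and 305 ± 44.1 CPM in MCA-948 (SD, n = 8).

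Of the 4 other binding partners of RANKL or osteoprotegerin, 3 were called in at least 1 comparison, as were 59.1% of all genes. Sdc1 was not called, and its line means spanned 0.61 on the log2 scale. Tnfsf10, which encodes TRAIL, the second ligand that osteoprotegerin captures, was at 5.34 ± 3.33 CPM in MCA-943 (SD, n = 4) and 0.359 ± 0.259 CPM in MCA-948 (SD, n = 8), a log2 difference of 3.85 (SE 0.479, edgeR adjusted p = 4.20e-08), and was called in 8 of 10 comparisons. Both ligands of osteoprotegerin were thus low in MCA-948. Lgr4, a further receptor of RANKL, was at 14.9 ± 1.99 CPM in MCA-943 (SD, n = 4) and 6.30 ± 1.15 CPM in MCA-948 (SD, n = 8). Vwf, an endothelial protein that binds osteoprotegerin, was at 40.0 ± 20.2 CPM in MCA-969 (SD, n = 8) and 7.32 ± 6.23 CPM in MCA-943 (SD, n = 4). Of the genes for the shedding of RANKL and its control, Mmp14, a protease that releases RANKL from the membrane, was at 1514 ± 101 CPM in MCA-970 (SD, n = 6) and 600 ± 88.8 CPM in MCA-969 (SD, n = 8). Rasa4, a Ras GTPase-activating protein, was at 22.95 ± 2.42 CPM in MCA-943 (SD, n = 4) and 2.95 ± 0.690 CPM in MCA-948 (SD, n = 8). The study picked Rasa4 on these tumors, so its direction is not independent evidence.

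Regulators of the pair and osteoclast genes gave the largest ranges. Vdr, the vitamin D receptor, which induces RANKL in osteoblasts, was at 52.9 ± 1.90 CPM in MCA-943 (SD, n = 4) and 3.39 ± 0.704 CPM in MCA-948 (SD, n = 8), a log2 difference of 3.97 (SE 0.252, edgeR adjusted p = 4.57e-14). In MCA-969, the other line with high Tnfsf11, it was at 4.70 ± 1.84 CPM (SD, n = 8). Il11, a cytokine that acts through gp130 and induces RANKL in osteoblasts, was at 134 ± 138 CPM in MCA-969 (SD, n = 8) and 6.24 ± 2.53 CPM in MCA-948 (SD, n = 8). Wnt16, which raises osteoprotegerin in bone, was at 1.56 ± 0.785 CPM in MCA-969 (SD, n = 8) and had at most 2 counts per tumor in MCA-943. These 3 had the largest ranges among the 15 regulators tested. Other regulators were above MCA-948 in both: the means were 431 CPM in MCA-943 and 650 in MCA-969 against 91.7 in MCA-948 for Ptgs2, 158 and 118 against 47.7 for Wnt5a, and 12.97 and 8.58 against 3.92 for Ptger4. All 3 were also above MCA-948 in the sensitive lines MCA-970 and MCA-972, with Ptgs2 highest in MCA-970, at 873 CPM, and Wnt5a and Ptger4 highest in MCA-972, at 223 and 30.5 CPM, and they are named here after their values were seen.

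Among the targets of RANK in osteoclasts, Acp5 (tartrate-resistant acid phosphatase) was at 36.3 ± 34.5 CPM in MCA-943 (SD, n = 4) and 2.15 ± 0.0703 CPM in MCA-972 (SD, n = 4). Mmp9 was at 326 ± 55.2 CPM in MCA-943 and 32.3 ± 4.63 CPM in MCA-972 (SD, n = 4 each). Ocstamp, needed for the fusion of osteoclasts, was at 0.906 ± 0.840 CPM in MCA-943 (SD, n = 4) and had at most 2 counts in MCA-970. Of the 7 osteoclast genes tested, these 3, Atp6v0d2 and Itgb3 were highest in MCA-943, whereas Ctsk, at 299 CPM, and Calcr, at 0.313 CPM, were highest in MCA-970. The myeloid markers had their highest median in MCA-948, at 67.4 CPM, where Acp5 was at 3.89 and Mmp9 at 35.1 CPM, and the next in MCA-943, at 58.4 CPM. The part of myeloid RNA in these levels was not tested. Dcstamp and Oscar, 2 more osteoclast genes, did not pass the filter and reached 2.12 and 1.21 CPM at most.

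**Figure D5:**
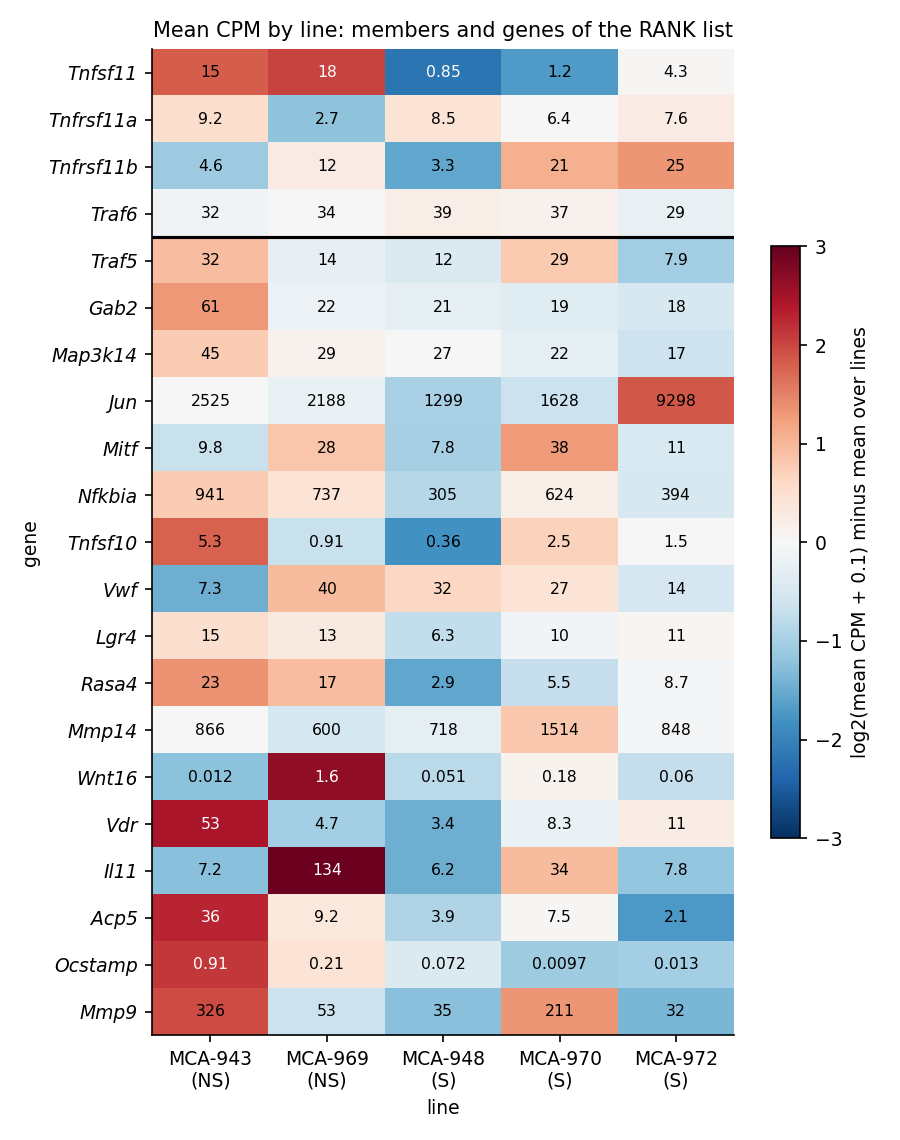
Mean CPM by line (numbers in the cells) of the 4 members, above the black line, and of the list genes named in the text; colours give log2(mean CPM + 0.1) minus its mean over the 5 lines (NS, non-sensitive; S, sensitive). Tnfsf11 is red in MCA-943 and MCA-969, Vdr, Acp5 and Mmp9 are deepest in MCA-943, and Il11 and Wnt16 in MCA-969.

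The genes whose pattern over the 30 tumors was most like that of each member were found by the root mean square difference of the centred log2 CPM. For Tnfsf11 they were Pcdhga6 (0.81 log2), Fam69c (0.89), Slc22a18 (0.90), Trbj2-3 (0.90) and Slc16a4 (0.93), where the median over all other genes was 1.96. The study lists Trbj2-3 and Slc16a4, like Tnfsf11, as higher in the non-sensitive of these tumors, so their likeness is not independent evidence. For Tnfrsf11a the nearest genes were 5031439G07Rik (0.32), Desi1 (0.33), Tuba1a (0.35), Gm4202 (0.35) and Cachd1 (0.36), with a median of 0.92. All 5 shared the low level in MCA-969. For Tnfrsf11b they were Lrrtm2 (0.49), Igsf10 (0.57), Osbpl10 (0.57), Pisd-ps1 (0.59) and Ccn3 (0.59), with a median of 1.39, and for Traf6 they were Phf14, Ggnbp2, Rlf, Hk1 and Usp30, at 0.16 to 0.17 with a median of 0.55. The 5 genes nearest Tnfrsf11b included Ccn3 (log2 CPM of 4.62 in MCA-970 and 1.14 in MCA-948), a secreted matricellular protein.

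The MCA-969 tumor WR, picked out by its Tnfsf11 level of 75.6 CPM, was compared with its 7 sister tumors as a description, with no test. Its 2489 counts of Tnfsf11 put the level 3.22 above the median of the others on the log2 scale, the fifth largest difference among the 12869 genes with a mean of at least 1 CPM in the line. Tnfrsf11b was also highest in WR, at 18.3 CPM against a median of 12.6, and Tnfrsf11a was at 2.06 against 2.82 CPM. WR therefore had the largest ratio of RANKL to RANK of all tumors, 98.0 per length, whereas its ratio of RANKL to osteoprotegerin, 5.21, was within the range of MCA-943.

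Several known inducers of RANKL and parts of NF-κB signalling were high in the same tumor. Of the 53 list genes, 17 were higher in WR than in all its sisters and 3 were lower, where 12.8% and 12.1% of all genes were. Il11 was at 423 CPM against at most 264 CPM in the others. Ptgs2, the cyclooxygenase of prostaglandin synthesis, was at 1908 against at most 943 CPM. Nfatc1, the transcription factor that RANK induces in osteoclasts, was at 174 against at most 54.6 CPM, and Rel, an NF-κB subunit, was at 119 against at most 60.6 CPM. Ptger4, a receptor of prostaglandin E2, was at 14.1 against at most 10.8 CPM, and Pthlh, the parathyroid hormone-like hormone that induces RANKL, was at 43.2 against at most 35.7 CPM.

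The 10 genes with the largest difference between WR and the median of its sisters also held cytokine genes. They were Col9a2, Ptx4, Zfp185, Csf2, Tnfsf11, Frem1, Nlrp3, Naalad2, Asgr1 and Lif, with log2 differences from 3.71 down to 2.91. Lif, a cytokine of the IL-6 family, was at 372 CPM against a median of 49.3 CPM and of at most 214 CPM. Csf2, which encodes GM-CSF, was at 9.41 CPM in WR and reached 19.7 CPM in another tumor, and was the one gene of the 10 that was not highest in WR. The T cell markers summed to 1.15 CPM in WR, within the 0.559 to 2.10 CPM of its sisters, with Cd3e at 0, and the myeloid markers to 14.9 CPM, within 11.7 to 52.3. The osteoblast markers summed to 34.2 CPM, above the 4.01 to 27.2 CPM of the others, with Sp7 at 3.10 and Dmp1 at 30.4 CPM. Alpl, at 0.546 CPM in WR, was below the MCA-969 mean of 1.025 CPM. Ibsp and Bglap, at 0.152 and 0.0304 CPM in WR, were low in level but above their line means of 0.0591 and 0.0234 CPM, which include WR. The fibroblast markers summed to 15835 CPM, just above the highest sister at 15641. The part of these cell types in the Tnfsf11 level of WR was not tested.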

How the data were processed

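RNA was sequenced from 30 tumors of 5 lines. The authors aligned reads with STAR 2.5.3a to GRCm38 and counted them per gene with featureCounts (version 1.5.2 in the submitters' processing notes). Per the file headers, duplicates had been removed with molecular identifiers. The deposited values are raw counts, and strand use is not given in the sources used here. The depth was 27745104 to 46537062 counts per tumor with a median of 35039383.

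From these counts, edgeR 4.0.16 (R 4.3.3) was fitted on all tumors with the line as the only term (TMM scaling, filterByExpr, robust quasi-likelihood fit). CPM are counts per 1000000 of the TMM-scaled library, and log2 CPM used a prior count of 2. Log2 ratios of counts used a pseudocount of 0.5 and ratios per length used none. Exact permutation tests used scipy 1.17.1. Benjamini-Hochberg adjustment ran over all genes tested in the fits of genes. For the relations within lines it ran over the 18 relations, and for the letter within lines over the 15 tests. Gene positions came from GENCODE mouse release 21. The run is the block of library numbers a tumor falls in, and the labels do not name it as a sequencing run.

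Groups follow the line in the labels, and line sensitivity follows the study. Tumors of a line are separate samples, but the labels do not say that each came from its own animal, so p-values measure the spread between these samples. The members and the gene and marker lists were chosen with earlier results of these data known. Named list genes are, in each role, up to 3 with the largest range of line means among those called. Alternatives were DESeq2 1.42.0, limma 3.58.1 (voom), other scaling, no filter, the run, the sample number set or the title code as a covariate, single runs, and leaving out each tumor. Leaving out both MCA-969 tumors labelled sensitive was added after seeing the data. The fitting script was tested on simulated data. Tumors with the same title code did not deviate together (median correlation 0.0117, against -0.00566 for different codes).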

Additional observations from a re-analysis of the deposited data

Results flagged for a closer look

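The Tnfsf11 level of the MCA-969 tumor WR, 75.6 CPM, stood far from the other 7 tumors of its line, which reached 15.3 CPM at most. The Traf6 level of the MCA-969 tumor W-2G, 49.4 CPM, also stood far from its line, whose next tumor was at 35.6 CPM. In both, the gap to the nearest tumor took up more of the range of the line than Dixon's 95% critical value allows. Such gaps were looked for in 25 groups of tumors, and chance gives about 1 in 20.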

How the results depend on the processing

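Of the alternatives other than leaving out a single tumor, 259 values kept their direction and their side of the threshold, or stayed within the spread or 1.5 times the count, and 12 did not. All 4 calls of Tnfrsf11a and the absence of calls of Traf6 held under every alternative run. For Tnfrsf11b, MCA-969 minus MCA-970 became a call with the run as a covariate (-1.25) and within the run that both share (-1.25). MCA-969 minus MCA-972 was no longer called with the run (-0.94) or the sample number set (-0.94) as a covariate, without both MCA-969 tumors labelled sensitive (-0.94) or within their shared run (-0.95), and lay between -1.18 and -0.94 as single tumors were left out, with -0.94 without W-2D and -0.99 without the MCA-972 tumor 2G. MCA-943 minus MCA-969 was -1.24 with the run as a covariate (edgeR adjusted p = 0.112). For the list, the genes called went from 18 to 9 for MCA-943 against MCA-970 with the run or the sample number set as a covariate, and from 16 to 10 for MCA-969 against MCA-948 within their shared run. With the run as a covariate they went from 16 to 10 for MCA-943 against MCA-969 and from 15 to 8 for MCA-948 against MCA-972. The cause was not tested. The letter difference of Tnfsf11 lay between -0.25 and 0.51 as single tumors were left out and turned to -0.25 without WR. The title code as a replicate block changed no call of the members, with 7 comparisons called for Tnfrsf11b. Depth limits Tnfsf11 most in MCA-948, where a tumor held 11 to 53 counts.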
